A study of Mus musculus with 32 samples.

Results

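The genes described here are the 3 zona pellucida genes Zp1, Zp2 and Zp3 and the oocyte growth factor genes Gdf9 and Bmp15, measured in sorted fetal mouse germ cells. Each was taken as the array probe whose platform annotation names that gene alone. One such probe was found for each of the 5 genes, out of 19938 genes named by 21789 single-gene probes and 35556 probes in all. Each gene therefore rests on a single probe set, and its level is compared between arrays and never with the level of another gene.

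The study asked whether endocrine disruptors (EDs) given to pregnant mice change the germ cells of their fetuses, and whether a change reaches the following generation. RNA of EGFP-positive cells sorted from gonads at 17.5 days post coitum (dpc) was hybridised to Affymetrix Mouse Gene 1.0 ST arrays, 32 in all. The G1R groups are germ cells of G1 fetuses (FVBxOG2) whose G0 dams received corn oil, bisphenol A (BPA, a plastics monomer, 0.2 mg/kg/day), DEHP (a phthalate plasticiser, 750 mg/kg/day) or vinclozolin (VZ, an antiandrogenic fungicide, 100 mg/kg/day) from 12.5 dpc. There were 3 arrays of fetal oocytes and 3 of prospermatogonia for each treatment, except 2 for DEHP oocytes, which gives 23 G1R arrays. The G2R groups are prospermatogonia of G2 fetuses (OG2xFVB) in the oil, DEHP and VZ lines, with 3 arrays each. The labels give these fetuses G1 mothers, whereas the study's methods describe G1 males exposed before birth and later mated to OG2 females, so the sources differ on the parent that was exposed. The G2 fetuses were not dosed themselves. All cells carry the OG2 transgene, in which the Oct4 promoter drives EGFP. The labels do not say how many fetuses or litters one array holds, so the p-values measure the spread between these samples.

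The zona pellucida is the glycoprotein coat of the egg, built by the oocyte from the products of the Zp genes, and sperm bind to it at fertilisation. GDF9 and BMP15 are secreted members of the TGFβ family through which the growing oocyte directs the granulosa cells around it. All 5 genes are known as genes of the growing oocyte after birth, and FIGLA, a basic helix-loop-helix factor, drives the zona genes through the E-box, a short DNA motif in their promoters. At 17.5 dpc oocytes are still in meiotic prophase and enclosed in germ cell cysts, while prospermatogonia are in mitotic arrest.

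Promoter windows were in the RefSeq table for Zp3 and Bmp15 (GRCm38.p6), and not for Zp1, Zp2 or Gdf9. The 250 bases before each annotated start are printed to show the letters on which the zona regulators are known to act. They were searched on both strands for the E-box CANNTG, the NOBOX element TAATTG and the TATA box TATAAA, and matches are in capitals. The Zp3 window is chr5:135979855-135980104 on the plus strand and the Bmp15 window is chrX:6320725-6320974 on the minus strand, both written 5′ to 3′ on the gene's strand.
Zp3: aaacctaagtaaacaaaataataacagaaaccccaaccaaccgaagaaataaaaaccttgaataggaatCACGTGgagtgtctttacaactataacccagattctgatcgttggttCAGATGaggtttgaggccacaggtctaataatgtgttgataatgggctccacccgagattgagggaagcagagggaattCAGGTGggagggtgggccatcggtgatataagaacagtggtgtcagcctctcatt
Bmp15: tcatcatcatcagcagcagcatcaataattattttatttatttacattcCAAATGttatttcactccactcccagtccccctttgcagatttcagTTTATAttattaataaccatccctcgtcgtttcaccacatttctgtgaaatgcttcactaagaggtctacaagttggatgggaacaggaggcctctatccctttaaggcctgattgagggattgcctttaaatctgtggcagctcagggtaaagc
Counting back from the start, the Zp3 window held 3 E-boxes, CACGTG at -181, CAGATG at -134 and CAGGTG at -55, and neither of the other motifs. The Bmp15 window held 1 E-box, CAAATG at -201, and TTTATA, the TATA box letters of the opposite strand, at -155. E-boxes were common letters, with at least 1 found in 66.2% of 32851 windows of this length and at least 3 in 12.2%. CACGTG was found in 6.02%. The NOBOX element was found in 7.17% of windows and the TATA box letters in 12.4%. A match is a run of letters and not a bound site.

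Defining markers were checked against the labels in the oil arrays. The female minus male difference was 4.01 log2 units for Lhx8, 3.59 for Nobox and 3.47 for Figla, which encode oocyte regulators, and -5.72 for Dnmt3l and -5.37 for Utf1, which mark prospermatogonia, all past the test. Of 7 oocyte markers 5 were higher in females and 2 lower, Stag3 (-0.48) and Stra8 (-0.38). Of 6 prospermatogonium markers 4 were lower in females, Tdrd9 was higher (0.28) and Nanos2 did not pass (0.09). For Pou5f1, which encodes OCT4 and whose promoter drives the sorting reporter, it was -3.18. The labels call all cells primordial germ cells and describe the sorted cells as prospermatogonia in females too, which these markers do not bear out. Markers of somatic cells were uneven among males, where the mean signal of 8 Sertoli genes lay between 7.59 and 9.33 in G1R arrays. The BPA male arrays 1 and 2 were high at 9.33 and 8.88. In females the same mean lay between 7.16 and 7.36.

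Fetal oocytes and prospermatogonia of the oil group were compared first, as controls for every other comparison. Zp2, Zp1 and Bmp15 were higher in oocytes, Zp3 was lower, and Gdf9 did not pass the test. In sorted bulk RNA, fewer cells with a transcript and less of it per cell cannot be told apart. A difference was called at an adjusted p under 0.05 over all probes, and 54.3% of all probes passed in this comparison, 28.7% higher and 25.6% lower in females. A count of 4 of 5 members past the threshold is therefore read against a background in which most probes pass.

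Zp2 encodes a structural protein of the zona matrix. Its RMA log2 signal was 9.75, 8.49 and 9.08 in oil females 1 to 3, and 7.77, 8.17 and 7.80 in oil males 1 to 3. Every female array was above every male array, as 4 of 5 members were apart between the sexes in oil against 59.8% of all probes, and the females were far less even than the males. The difference was 1.20 log2 units (2.29-fold, SE 0.24, n = 3 and 3 arrays, limma adjusted p = 1.66e-04), with a 95% confidence interval from 0.69 to 1.70. The SE and interval use 1 variance shared by all groups, while the SD was 0.632 in oil females and 0.225 in oil males. Of all 35556 differences in this comparison it lay at the percentile 93.0.

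Zp1 encodes the protein that crosslinks zona filaments. It read 7.95, 7.40 and 7.70 in oil females and 7.21, 7.27 and 7.25 in oil males. The groups did not overlap, and the female arrays kept the order seen for Zp2, with array 1 the highest and array 2 the lowest. Females were higher by 0.44 log2 units (1.36-fold, SE 0.15, limma adjusted p = 0.0146). Without oil female 1 the difference was 0.31 and no longer passed (adjusted p = 0.114).

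Zp3, whose product has long been described as a sperm receptor of the coat, ran the other way. It read 6.69, 6.65 and 6.62 in oil females and 8.57, 8.89 and 8.73 in oil males. The female values were close together and far below those of the males. The difference of the measured means was -2.08 log2 units (SE 0.15, limma adjusted p = 8.41e-12). Among oocytes the Zp3 signal was within the range of probes for olfactory receptor genes, which are not known to be active in germ cells of this age and served as a measure of background. The 95th percentile of 1023 such probes was 6.97 in oil females and 7.03 in oil males. With each female array set at the higher of its Zp3 signal and its own background percentile, a mean of 7.02, against 8.73 in males, Zp3 was at least 3.26-fold lower in oocytes.

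The growth factor genes were near background in both sexes. Bmp15 read 6.95, 6.85 and 6.82 in oil females and 6.30, 6.40 and 6.52 in oil males. Its groups did not overlap, and all 6 values were below the background percentile of their group. Females were higher by 0.46 log2 units (SE 0.13, limma adjusted p = 0.00342). Gdf9 read 7.04, 6.55 and 6.76 in oil females and 6.89, 6.42 and 6.52 in oil males. These ranges overlapped, and the difference of 0.17 log2 units did not pass (95% confidence interval -0.15 to 0.50, limma adjusted p = 0.376). By this measure the mean signals of Gdf9 and Bmp15 were within the background range in all 11 groups and that of Zp3 in the 4 female groups, whereas those of Zp1 and Zp2 were above it in all 11.

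Background itself differed between the sexes. The median difference over the olfactory receptor probes was 0.24 log2 units in oil, with 337 probes higher in females and 28 lower, and their 95th percentile was 0.62. The differences of Zp1, Gdf9 and Bmp15 lay inside that spread, those of Zp2 and Zp3 outside it. With cyclic loess scaling the background percentile was 0.50, and Zp1 (0.55) and Bmp15 (0.53) lay just outside it. Under BPA, described next, Zp1 lay outside without that scaling as well, at 0.79 against 0.58, but was as low as 0.56 when single arrays were left out. Under DEHP (0.68 against 0.75) and VZ (0.43 against 0.68) it lay inside. Bmp15 lay inside under BPA, DEHP and VZ without that scaling (0.46, 0.48 and 0.32). With it, Zp1 (0.89) and Bmp15 (0.51) lay outside the BPA percentile of 0.43. Under DEHP Zp1 (0.76) lay outside and Bmp15 (0.50) inside the percentile of 0.59, and under VZ Zp1 (0.48) and Bmp15 (0.32) lay inside that of 0.50. The part of background in these differences was not tested.

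**Figure D1:**
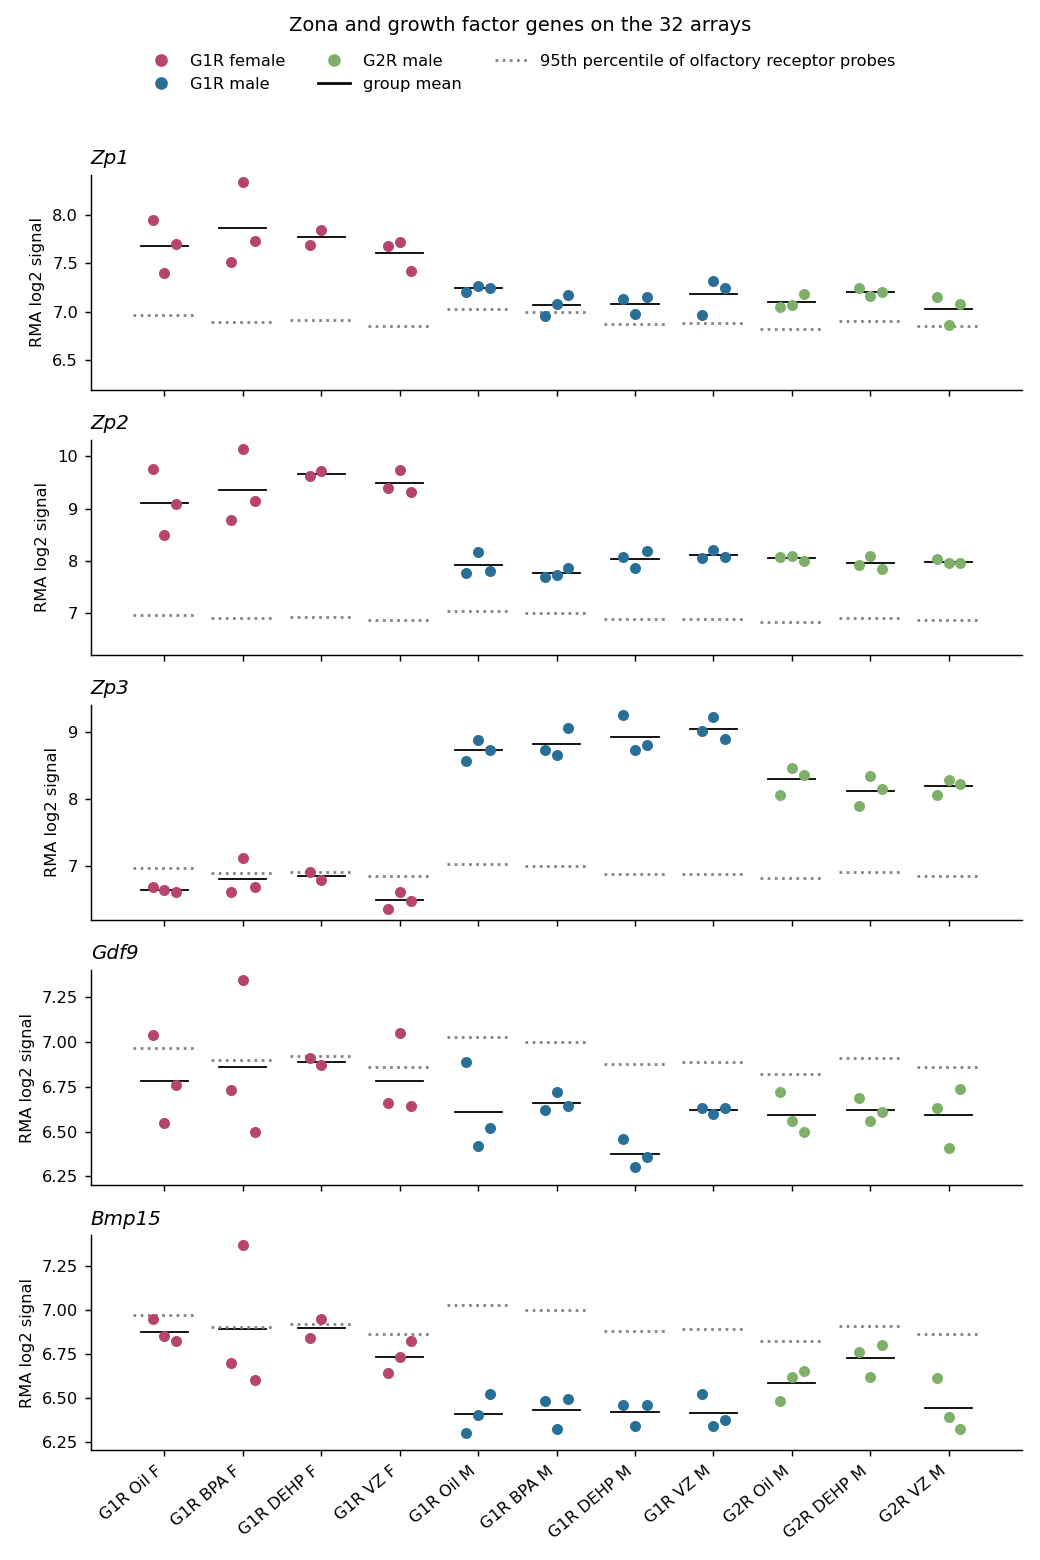
RMA log2 signal (vertical axes, one panel per gene, each with its own range) of every array in the 11 groups, with black bars for group means and dotted lines for the 95th percentile of olfactory receptor probes in that group. Zp2 lies between 8.49 and 10.15 in females and between 7.68 and 8.20 in males, while Zp3 lies at 7.13 or lower in females and at 7.90 or higher in males.

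The same contrast was made within each ED, which asks whether the difference between oocytes and prospermatogonia holds in exposed fetuses. Zp1, Zp2, Zp3 and Bmp15 passed in the same direction under BPA, DEHP and VZ as under oil. The background was 55.8% of probes called for BPA, 52.1% for DEHP and 55.4% for VZ. Members whose sexes did not overlap were 4 of 5 under BPA and all 5 under DEHP and VZ, against 61%, 68.2% and 64.1% of all probes. The samples of each ED are distinct from those of oil. The p-values are not independent, since all arrays share the variance estimate of each probe in the fit.

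Zp2 read 8.79, 10.15 and 9.14 in BPA females against 7.68, 7.73 and 7.87 in BPA males. It read 9.62 and 9.71 in DEHP females against 8.07, 7.87 and 8.19 in DEHP males. It read 9.40, 9.74 and 9.31 in VZ females against 8.05, 8.20 and 8.08 in VZ males. The sexes were apart in all of these, and the lowest female value of any group was oil female 2. The differences were 1.60 log2 units under BPA, 1.63 under DEHP and 1.38 under VZ, with limma adjusted p-values of 3.47e-06, 1.52e-05 and 2.81e-05.

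Zp3 remained the member with the widest separation. It read 6.61, 7.13 and 6.69 in BPA females against 8.74, 8.66 and 9.06 in BPA males. It read 6.91 and 6.79 in DEHP females against 9.26, 8.73 and 8.81 in DEHP males. It read 6.37, 6.62 and 6.48 in VZ females against 9.02, 9.23 and 8.90 in VZ males. The sexes were more than 1 log2 unit apart in every group. The female minus male differences were -2.01 log2 units under BPA, -2.08 under DEHP and -2.56 under VZ (limma adjusted p = 1.59e-11, 8.68e-11 and 1.56e-13). The bounds of the kind given for oil were at least 3.43-fold under BPA, where 1 of 3 female arrays was above its background percentile, 3.96-fold under DEHP and 4.45-fold under VZ.

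Zp1 differences were 0.79 under BPA, 0.68 under DEHP and 0.43 under VZ, and Bmp15 differences were 0.46, 0.48 and 0.32, all past the test. Over the 11 female and 12 G1R male arrays together, Zp1, Zp2 and Bmp15 were higher on every female array than on any male array and Zp3 lower, while Gdf9 overlapped. That is 4 of 5 members without overlap, against 37.4% of all probes. The female range of Zp1 was 7.40 to 8.34 and the G1R male range 6.96 to 7.32. For Bmp15 the ranges were 6.60 to 7.37 and 6.30 to 6.52. With the G2R males included, the male range of Bmp15 reached 6.80 and overlapped that of the females.

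Gdf9 was called under DEHP alone. It read 6.91 and 6.87 in DEHP females and 6.46, 6.30 and 6.36 in DEHP males, the lowest male group. The difference was 0.52 log2 units (SE 0.18, limma adjusted p = 0.0165). It lay inside the spread of the olfactory receptor probes under DEHP, whose 95th percentile was 0.75. With cyclic loess scaling it was 0.55, also inside the percentile of 0.59. Leaving out either female array, which leaves a single one, gave 0.50 and 0.53. The differences under BPA and VZ were 0.20 and 0.16, with adjusted p-values of 0.284 and 0.388. The DEHP difference did not differ from the oil difference by the interaction of sex and treatment (0.34 log2 units, 95% confidence interval -0.14 to 0.83, adjusted p = 0.783). Averaged over the 4 treatments, which was computed after the values had been seen, Gdf9 was higher in females by 0.26 log2 units (SE 0.08, limma adjusted p = 0.00522), in a contrast where 75.4% of all probes passed. The median sex differences of the olfactory receptor probes were 0.242 in oil, 0.205 under BPA, 0.306 under DEHP and 0.29 under VZ. The averaged Gdf9 difference lay among these background medians.

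Some of the weaker calls rested on single arrays. The Bmp15 call under BPA was lost without BPA female 2 (0.22, adjusted p = 0.0561). Under DEHP the Bmp15 difference was 0.42 without DEHP female 2, which leaves a single female array. Under VZ, Zp1 was lost without male 1 (0.32), female 1 (0.39) or female 2 (0.37), and Bmp15 without male 2 (0.29), male 3 (0.30), female 2 (0.32) or female 3 (0.28). The median difference over all probes was 0.11 log2 units under VZ and at most 0.09 elsewhere. Measured from that median, the VZ differences were 0.32 for Zp1, 1.27 for Zp2, -2.67 for Zp3, 0.06 for Gdf9 and 0.21 for Bmp15. With cyclic loess scaling, which moved the VZ median to 0.01, they were 0.48, 1.21, -2.61, 0.18 and 0.32, and every member kept its direction in the 4 treatments.

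**Figure D2:**
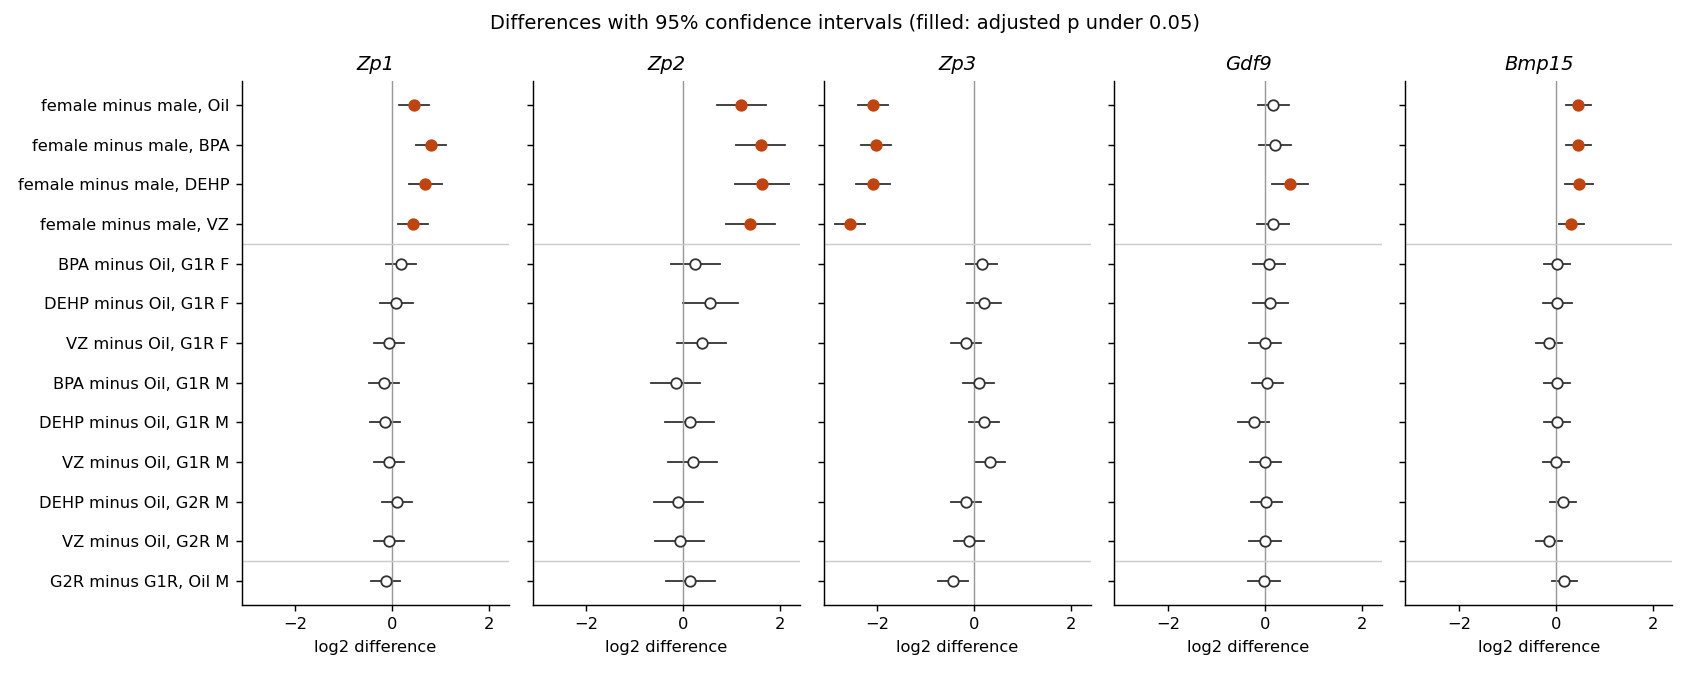
Log2 differences (horizontal axes) of the 5 genes in 13 comparisons (vertical axis), with bars for 95% confidence intervals and filled points for an adjusted p under 0.05. The points passing the test are all in the upper block of comparisons between the sexes, where Zp3 lies between -2.56 and -2.01 and Zp2 between 1.20 and 1.63.

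The order of the 11 group means showed the same division for the zona genes. For Zp1 and Zp2 the 4 female groups came first, and for Zp3 the 4 G1R male groups came first, then the G2R males, then the females. For Zp3 the order was VZ males 9.05, DEHP males 8.94, BPA males 8.82 and oil males 8.73 in G1R, then 8.30, 8.19 and 8.13 in the oil, VZ and DEHP lines of G2R, then DEHP, BPA, oil and VZ females at 6.85, 6.81, 6.65 and 6.49. Neighbouring groups in this order overlapped except at the step from G1R to G2R males and the step from males to females. For Zp2 the DEHP, VZ, BPA and oil females followed each other at 9.67, 9.49, 9.36 and 9.11 with overlapping arrays, and the male groups lay between 7.76 and 8.11, also overlapping from each group to the next. The group means of Gdf9 spanned 0.52 log2 units and those of Bmp15 0.49, and most neighbours overlapped. For Bmp15 the VZ females and the DEHP line of G2R males were both at 6.73, with overlapping arrays.

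The genes most like Zp2 and Zp3 over the 11 group means were found by the root mean square difference between profiles, each centred on its own mean. They are given as a description. For Zp2 these were Rprd1a (0.087 log2 units), Ifit1bl2 (0.089) and Zbtb10 (0.10). For Zp3 they were the organic cation transporter gene Slc22a2 (0.083), Apela, which encodes a peptide hormone (0.12), and the carboxypeptidase gene Cpa1 (0.12). Slc22a2 read 6.95 in oil females, 8.97 in oil males and 8.59 in G2R oil males on average.

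ED exposure was compared with oil within each sex and generation, to find direct effects on G1R cells and effects in G2R cells. No member passed in any of the 8 comparisons. Nor did nearly any other probe, with 0% called in the BPA, DEHP and VZ oocyte comparisons, in BPA prospermatogonia and in both G2R comparisons, and 0.00562% in DEHP and VZ prospermatogonia of G1R, which is 2 probes each. At an unadjusted p under 0.05 1 member comparison passed, Zp3 in VZ prospermatogonia of G1R, where 18.3% of all probes did.

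The largest differences from oil were those of Zp2 in oocytes, 0.56 log2 units under DEHP and 0.38 under VZ, followed by Zp3 in VZ prospermatogonia. Zp2 under BPA differed by 0.25. The 95% confidence intervals were from -0.0041 to 1.12, from -0.13 to 0.88 and from -0.25 to 0.76, and the adjusted p-values 0.795, 0.894 and 1.00. The oil females spread over more than 1 log2 unit, and both DEHP values lay between oil females 3 and 1. All 3 comparisons share the same oil arrays. Without oil female 1 they were 0.88, 0.70 and 0.58 for DEHP, VZ and BPA, and without oil female 2 they were 0.25, 0.07 and -0.05. Without BPA female 2 the BPA difference was -0.14.

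Zp3 in VZ prospermatogonia was 0.32 log2 units above oil (95% confidence interval 0.0087 to 0.63, limma adjusted p = 0.261). The values 9.02, 9.23 and 8.90 all lay above the highest oil male, 8.89, by a narrow margin in one case. The background of such separation in this comparison was 27.5% of probes. In G2R the VZ line read 8.06, 8.29 and 8.23 and the oil line 8.07, 8.47 and 8.36, a difference of -0.11 (adjusted p = 0.973). The remaining Zp3 differences from oil were between -0.17 and 0.21.

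For Zp1 the differences from oil were between -0.17 and 0.18, for Gdf9 between -0.24 and 0.11, and for Bmp15 between -0.14 and 0.15. The lowest adjusted p-values over the 8 comparisons were 0.677 for Zp1, 0.515 for Gdf9 and 0.859 for Bmp15. Groups without overlap occurred for Zp1 in BPA and DEHP males, where 13.3% and 20.7% of probes were apart, for Zp3 in DEHP females (22.3%) and for Bmp15 in VZ females (11.8%). No member was apart in BPA females or in the G2R comparisons of DEHP and VZ, where 8.17%, 9.69% and 10% of probes were. None of the 5 interaction terms passed for any member, whether sex by BPA, DEHP or VZ or generation by DEHP or VZ, and no probe was called in any of these terms. One term, Zp3 for sex by VZ (-0.48 log2 units, limma adjusted p = 0.797), had an unadjusted p under 0.05, as did 6.21% of all probes there.

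Prospermatogonia of the G2R and G1R generations were compared in the oil groups. Zp3 had the largest difference of the 5 members, and none passed the test. Zp3 read 8.07, 8.47 and 8.36 in G2R against 8.57, 8.89 and 8.73 in G1R. The groups did not overlap, nor did those of Zp1 (7.05, 7.07 and 7.19 against 7.21, 7.27 and 7.25), as was true of 32.6% of all probes. The difference was -0.43 log2 units (SE 0.15) and missed the threshold over all probes (limma adjusted p = 0.0691), in a comparison where 10.3% of probes passed and 26.9% had an unadjusted p under 0.05. With adjustment over single-gene probes alone it passed (adjusted p = 0.0463).

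Zp3 was low in the exposed lines of G2R as well. The DEHP line read 7.90, 8.34 and 8.15 and the VZ line 8.06, 8.29 and 8.23. All 9 G2R arrays, from 7.90 to 8.47, were below all 12 G1R male arrays, from 8.57 to 9.26, a separation seen in 3.36% of all probes. Averaged over the oil, DEHP and VZ lines, a contrast added after these values were known, the G2R minus G1R difference was -0.70 log2 units (SE 0.09, limma adjusted p = 2.44e-06), and 30.8% of all probes passed there. The averages of the other members were -0.06 for Zp1, -0.02 for Zp2, 0.07 for Gdf9 and 0.17 for Bmp15, with adjusted p-values of 0.663, 0.923, 0.621 and 0.0861. With cyclic loess scaling Bmp15 passed (0.21, adjusted p = 0.0439). Generation, the reciprocal cross and the time at which the arrays were run, which the study names as possibly differing, change together in these samples and cannot be told apart.

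Of 10 granulosa and pregranulosa genes and 8 Sertoli genes none passed between the oil males of the 2 generations by limma, and 4 and 2 of them had an unadjusted p under 0.05, all lower in G2R. The mean over the granulosa genes, several of which were well above background in prospermatogonia, was 7.63 to 7.81 in G1R males and 7.26 to 7.52 in G2R males, without overlap. The Sertoli means overlapped, at 7.59 to 9.33 and 7.38 to 8.07. The part of these in the Zp3 difference was not tested.

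Zp1 and Zp2 had wider ranges among female than among male arrays. Zp2 spanned 1.66 log2 units over 11 female arrays and 0.52 over 21 male arrays, and Zp1 0.94 and 0.46. The ranges were 0.85 and 0.59 for Gdf9 and 0.77 and 0.51 for Bmp15. For Zp3 the range was 0.76 in females and 1.36 over all males, or 0.69 within G1R and 0.58 within G2R males. BPA female 2 had the highest female value of all 5 members, with 8.34 for Zp1, 10.15 for Zp2, 7.13 for Zp3, 7.35 for Gdf9 and 7.37 for Bmp15. Oil female 2 had the lowest Zp1 and Zp2, at 7.40 and 8.49. The array that was highest and the one lowest for Zp2 thus belonged to different groups, and the other arrays of each group lay between them.

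Correlation over the 11 female arrays was computed for the 10 pairs of members. Pearson's r was between 0.519 and 0.831, and 8 of 10 pairs passed after Benjamini-Hochberg adjustment of a permutation test. Zp2 with Gdf9 was the strongest (r = 0.831, permutation p = 0.00133, adjusted p = 0.00737, Spearman's rho = 0.818, permutation p = 0.00334, adjusted p = 0.0334). Zp1 with Gdf9 came next by r (0.824, permutation p = 0.0022, adjusted p = 0.00737) but did not pass by rho (0.645, permutation p = 0.037, adjusted p = 0.074). Zp1 with Zp2 followed (r = 0.811, permutation p = 0.00221, adjusted p = 0.00737, rho = 0.782, permutation p = 0.00668, adjusted p = 0.0334). By rho only Zp2 with Gdf9 and Zp1 with Zp2 passed. Without the 2 arrays farthest from the median of the first gene, r was 0.718 for Zp2 with Gdf9 and 0.616 for Zp1 with Zp2, while all 4 pairs with Zp3 were at 0.437 or lower. Without BPA female 2 the 10 values were between 0.236 and 0.759. Those of Zp3 with Zp1, Zp2 and Gdf9 fell to 0.357, 0.236 and 0.376, and of Bmp15 with Zp1 and Zp2 to 0.272 and 0.30. Among these, Zp2 with Zp3 and Zp2 with Bmp15 had not passed with all arrays (permutation test of r, adjusted p = 0.0999 and 0.0657). Zp3 with Bmp15 fell from 0.784 to 0.483 and Gdf9 with Bmp15 from 0.779 to 0.50. The r of every pair with Zp3 or Bmp15 thus leaned on that array. Within groups, with each group's mean removed, r was between 0.71 and 0.963. These values still include BPA female 2 and were not tested, so they do not show covariation apart from that array.

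Other genes of oocyte growth rose and fell with Zp2 across these arrays. A list of 19 such genes, a list of 12 regulators of zona transcription and the 10 granulosa genes were set against Zp2, 41 relations in all, an analysis chosen after the values had been seen. Of the oocyte growth genes 14 passed, all with positive r, and the median r of the 19 was 0.851. Among those that passed, Nlrp14, Bcl2l10, Oas1d and Omt2a had female medians of 6.24, 6.72, 6.40 and 3.52. These were under 6.89, the 95th percentile of the olfactory receptor probes over the female arrays. Without the 2 arrays farthest from the Zp2 median, r of the genes that passed was between 0.421 for Omt2a and 0.972 for Nlrp5, with Dppa3 at 0.519. Of the other 35555 probes on the arrays, 4.7% had an r of 0.706 or more, the lowest among the genes that passed, and the median r was -0.055. Of the regulators 3 passed with positive r and 1 with negative r, median 0.296. Of the granulosa genes none passed (median r 0.067, 0 of 10 at an adjusted p under 0.05 and 1 of 10, Wnt4, at an unadjusted p of 0.0367).

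Padi6, Nlrp5 and Nlrp4f, named here for the highest r, followed Zp2 most closely. Padi6 and Nlrp5 encode maternal proteins of the egg cytoplasm needed by the early embryo. Padi6 read 9.84 on BPA female 2 and 7.66 on oil female 2 (r = 0.984, permutation p = 2e-05, adjusted p = 2.05e-04; rho = 0.945). Nlrp5 read 12.64 and 11.64 on the same arrays and ranked the 11 arrays exactly as Zp2 did (r = 0.981, permutation p = 1e-05, the smallest the permutations can give, adjusted p = 2.05e-04; rho = 1.0). Without the 2 arrays farthest from the Zp2 median r was 0.961 for Padi6, 0.972 for Nlrp5 and 0.935 for Nlrp4f.

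Among the regulators Figla, Lhx8 and Nobox moved little over the same arrays. Figla, which drives the zona genes, lay between 10.83 and 11.11, and Lhx8 between 11.06 and 11.34. Nobox, another homeobox gene of early oocytes, lay between 11.79 and 12.14 and followed Zp2 within that narrow range (r = 0.792, permutation p = 0.0039, adjusted p = 0.0123; rho = 0.818, without 2 arrays r = 0.769). The other regulators that passed with positive r were Tcf4 and Sohlh2. Tcf4 had r = 0.814 (permutation p = 0.00251, adjusted p = 0.00936, rho = 0.836, without 2 arrays r = 0.734). Sohlh2 had r = 0.706 (permutation p = 0.0155, adjusted p = 0.0354, rho = 0.755, without 2 arrays r = 0.486). Taf4b, which encodes a TFIID subunit of germ cells, ran against Zp2 (r = -0.793, permutation p = 0.00381, adjusted p = 0.0123, rho = -0.791, without 2 arrays r = -0.85). Foxl2, the defining pregranulosa gene, was 7.07 on BPA female 2 and 6.98 on oil female 2. Gata4, Lhx9, Tcf3 and Sohlh2 ranged more widely, over 0.79, 0.58, 0.55 and 0.54 log2 units, and the median range was 0.36 for the 12 regulators and 0.81 for the oocyte growth genes. The mean of the olfactory receptor probes was lowest of all females on BPA female 2 (5.35) and was 5.56 on oil female 2.

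**Figure D3:**
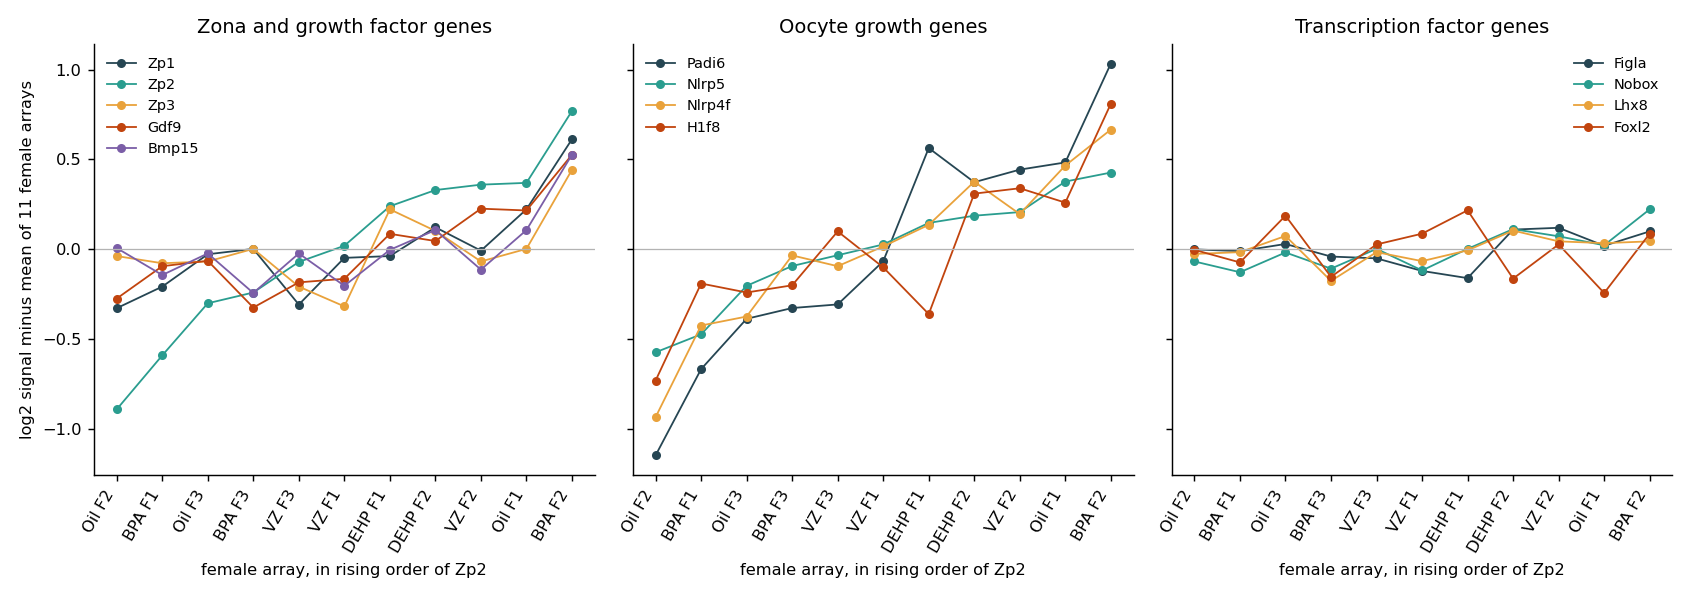
Log2 signal minus the mean of the 11 female arrays (vertical axis) for the members, 4 oocyte growth genes and 4 transcription factor genes, with arrays in rising order of Zp2. The growth genes climb with Zp2 from oil female 2 to BPA female 2, with Padi6 rising from 7.66 to 9.84, while Figla, Nobox, Lhx8 and Foxl2 stay within 0.5 log2 units.

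Genes known to act with the 5 members were described in the oil comparison by lists, and are read against the 54.3% of all probes that passed there, 28.7% higher and 25.6% lower. Among 12 regulators of zona transcription, 7 were higher and 2 lower in oocytes, with a median difference of 1.00 log2 units against 0.05 for all probes. Lhx8, Nobox and Figla led, followed by Foxo3, a brake on follicle activation, at 2.25. The helix-loop-helix partner of FIGLA, Tcf3, differed by 0.05 and did not pass. Lhx9, a homeobox gene of the somatic gonad, was lower, at -0.74.

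Among 11 egg coat partners 4 were higher and 2 lower (median 0.18), a share near that of all probes. Furin, a protease of the family that cleaves zona precursors, was higher by 1.68, and Izumo1r, which encodes JUNO, the egg receptor for sperm, by 0.73. Fetub, which encodes an inhibitor of zona hardening, was lower, at -1.38. Zp4-ps, the mouse pseudogene of the fourth zona gene, differed by 0.26 and did not pass (adjusted p = 0.0669). Among 11 genes for other proteins with a zona domain, 1 was higher and 6 lower (median -0.35). The TGFβ co-receptor genes Eng and Tgfbr3 were lower, at -0.92 and -0.64, as was Dmbt1 at -0.73.

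The receptors through which GDF9 and BMP15 signal were all called, 5 of 7 higher and 2 lower in oocytes (median 0.69). Tgfbr1, the type I receptor of GDF9, was higher by 1.70, Bmpr1a by 1.30 and Bmpr2, the type II receptor of both ligands, by 1.19, while Bmpr1b, the type I receptor of BMP15, was lower, at -0.71. Of 12 SMAD and antagonist genes 4 were higher and 5 lower (median -0.12). Smad2 was higher by 0.81 and Smad4 by 0.48, and Fst, which encodes the antagonist follistatin, was lower, at -1.30.

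Of 14 genes that GDF9 or BMP15 are known to control in follicles, 3 were higher and 4 lower (median -0.09). The 3 were the inhibitors of differentiation Id1, Id2 and Id3, at 4.82, 5.76 and 4.30 log2 units. They are general targets of BMP signalling. Ptgs2 was lower, at -1.55, and so was Fst. Of 17 other ligands of the family 1 was higher and 8 lower (median -0.47), with Tgfb1, Bmp4, Bmp2 and Bmp8b at -2.72, -2.25, -1.52 and -1.01. Of 19 oocyte growth genes 11 were higher and 1 lower (median 0.43). Nlrp5 was higher by 4.73, Dppa3 by 3.70, Kit by 2.84 and Tcl1 by 2.81, whereas Nlrp4f, which followed Zp2 among females, did not differ by sex (0.17, adjusted p = 0.56).

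No gene of these lists passed in an ED comparison. Between G2R and G1R oil males 9 of 99 distinct genes did, which at 9.09% was near the 10.3% of all probes. Nobox was lower in G2R, at -0.76 (adjusted p = 4.19e-04), and Ooep, Mos, Zp4-ps, Bmp8b and Gdf3 were lower, at -0.48, -0.49, -0.38, -0.36 and -0.26. Tgfbr1, Bmpr1a and Tcf12 were higher by 0.32, 0.30 and 0.26.

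**Figure D4:**
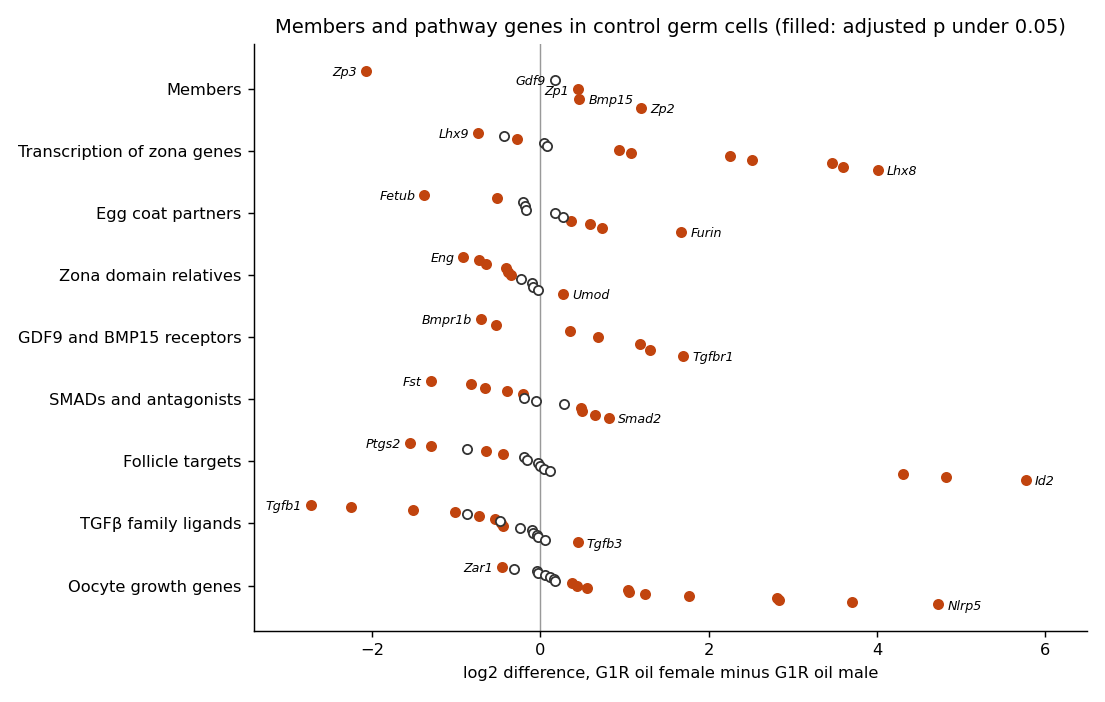
Log2 difference between oil females and oil males of G1R (horizontal axis) for each gene of the members and of 8 pathway lists (rows), filled where the adjusted p was under 0.05, with the outermost genes of each list named. The Id genes, Nlrp5 and Lhx8 lie at 4 or more log2 units on the female side, and Tgfb1, Bmp4 and Zp3 lie below -2 on the male side.

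Genes beside the members in the genome were compared in the same way, an analysis also chosen after the values had been seen. Beside Zp3, Ssc4d and Dtx2 were lower in oil females, at -0.20 and -0.40 log2 units (adjusted p = 0.0278 and 0.00369), against -2.08 for Zp3 itself. In this comparison 54.3% of all probes passed. Beside Zp1, Prpf19 was lower, at -0.57 (adjusted p = 6.67e-05), and Ptgdr2 differed by -0.03 (adjusted p = 0.816). Beside Zp2, Tmem159 was lower, at -0.55, and Anks4b differed by 0.35 (adjusted p = 0.0531). Uqcrq, a respiratory chain gene whose annotated span overlaps that of Gdf9, was higher in females by 1.35 (adjusted p = 2.65e-08), while Shroom1 on the other side differed by -0.13 (adjusted p = 0.321). Whether probes of Gdf9 lie in the shared stretch is not known from the files, so its values are uncertain to that extent. Beside Bmp15, Nudt10 and Shroom4 differed by 0.18 and -0.02 (adjusted p = 0.412 and 0.909).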

How the data were processed

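The deposited table holds log2 signal per probe for 32 arrays. Per the labels and the methods, the authors labelled total RNA of sorted cells, hybridised Affymetrix Mouse Gene 1.0 ST arrays, normalised them by robust multichip average (RMA), and tested contrasts in Partek (version not given in the sources used here). RMA includes quantile normalisation of probe intensities, which can shift dim probes where groups differ widely. Values lay between 2.59 and 14.82, and array medians still differed, from 7.29 to 7.50. Probes were named from the platform annotation, and 21789 of 35556 named a single gene, 1621 several and 12146 none.

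Groups came from the sample titles. limma 3.58.1 (R 4.3.3) estimated 11 group means for every probe, with empirical Bayes moderation and 21 residual degrees of freedom, and p-values were adjusted by Benjamini-Hochberg over 35556 probes with a threshold of 0.05. A simulated data set with known changes was used to test the scripts. Female correlations used 100000 permutations, two-sided (Python 3.11.15, scipy 1.17.1). Interval limits are at 95%. The number of arrays limits the precision. The alternatives were unmoderated least squares, the compared arrays alone, probes above the olfactory receptor median (5.35), single-gene probes, cyclic loess, weighted arrays, a block on replicate number, and leaving out each array.

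Named genes were the members, up to 4 genes of each list with the smallest p between the sexes in oil, those passing between generations or versus oil, and the 3 nearest profiles of members whose group means span 1 log2 unit or more. Others are named where a sentence says so or as markers. The members and lists were chosen with earlier results of these data known.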

Additional observations from a re-analysis of the deposited data

How the results depend on the processing

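No result reversed direction past the threshold. In the comparison of sexes in oil the count of members past the threshold was 3 to 4 when each array was left out, and Zp1 lay between 0.31 and 0.58 log2 units, missing the threshold only without oil female 1. The count was 3 to 5 under DEHP, lowest without DEHP female 2, where Bmp15 fell to 0.42 (adjusted p = 0.0694), and 2 to 3 under VZ where an array was left out against 4 with all arrays, lowest without VZ female 2. Under VZ, Zp1 missed the threshold without male 1 (0.32), female 1 (0.39) or female 2 (0.37), and Bmp15 without male 2 (0.29), male 3 (0.30), female 2 (0.32) or female 3 (0.28). Fitted on the BPA arrays alone, Bmp15 was 0.46 with adjusted p = 0.0868, and Gdf9 passed under BPA without BPA female 3 (0.38, adjusted p = 0.0493). Between G2R and G1R oil males the count of members past the threshold was 0, and 1 with single-gene probes or with the mean over the 3 lines, Zp3 in both. The mean over the 4 treatments brought Gdf9 past the threshold (0.26), a value among the background medians of the same treatments.

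Replicate numbers are shared between groups, but the labels do not say what they mark. Same-numbered arrays deviated from their group means with correlations between -0.354 and 0.131, and not all over 0.1 in any comparison. With the replicate number as a block, the oil differences were 0.44 for Zp1, 1.20 for Zp2, -2.08 for Zp3, 0.17 for Gdf9 and 0.46 for Bmp15, and 4 members passed, so no call changed there or in the other comparisons. Without BPA female 2 the sex by BPA terms were 0.12 for Zp1 and 0.01 for Zp2, against 0.35 and 0.40 with it. Signals of Gdf9, Bmp15 and female Zp3 near background limit what small differences there can show.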
